A study of Rattus norvegicus with 21 samples.

Results

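Calcium enters neurons through voltage-gated channels, in which a pore-forming alpha1 subunit assembles with an alpha2delta and a beta subunit that govern how many channels reach the membrane and how they gate. It is then cleared by ATP-driven pumps and by exchangers that trade it for sodium, or released from and refilled into the endoplasmic reticulum through ryanodine and inositol trisphosphate (IP3) receptors, the SERCA pump and the store sensors and channels of the Stim and Orai families. In hippocampal interneurons and pyramidal cells these proteins are known to shape transmitter release, firing and calcium signals in dendrites.

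The 47 genes described here are the symbols beginning with Cacn, Atp2a, Atp2b, Atp2c, Ryr, Itpr, Slc8a, Stim or Orai, out of 16245 symbols in the expression table. They were picked by name alone, and comprise 7 high-voltage-activated alpha1 subunits, 3 T-type alpha1 subunits, 4 alpha2delta, 4 beta and 8 gamma subunits, 2 SERCA pumps, 4 plasma membrane pumps, 1 Golgi pump, 3 ryanodine receptors, 3 IP3 receptors, 3 sodium-calcium exchangers and 5 store sensors or channels. Of these, 43 had reads in at least 1 of 21 neurons and 4 had none (Atp2a3, Cacng1, Cacng6 and Ryr1). Among all symbols, 68.8% had reads in at least 1 neuron.

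The 21 neurons were single hippocampal cells whose contents were drawn into the recording electrode after patch clamping and sequenced one by one. Every neuron came from Wistar rats carrying a transgene that marks cells with the vesicular GABA transporter (VGAT) with the fluorescent protein Venus, was taken at embryonic day 18 and was kept for 17 days in vitro. The groups were 5 pyramidal neurons grown with glia, 5 GABAergic neurons from purified cultures given oligodendrocyte conditioned medium (OCM) at day 3 in vitro, 5 GABAergic neurons from purified cultures without it, and 6 GABAergic neurons grown with glia. Purified cultures, including those given OCM, had received the antimitotic agents FdU and U at 5 µM from 24 h after dissection, removed after 36 h, and OCM came from oligodendrocytes of postnatal day 2 Wistar cortex. Since neither an animal nor a culture is named for any neuron, each group counts as 1 sample. No test was therefore possible, and SDs and ranges below describe the spread between neurons only. The amount of cytoplasm collected from each neuron is not among the labels, so fewer transcripts in a neuron and less RNA collected from it cannot be told apart.

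Depth ran from 1817671 to 25160911 reads per neuron. The labelled cell types had their defining markers: Gad1 and Slc32a1 were at 0 in all 5 pyramidal neurons and Slc17a7 was at 0 in all 16 GABAergic neurons. Glial transcripts were also present in pyramidal neurons. The summed value of 12 oligodendrocyte genes was 0, 1840, 324915, 103570 and 0 in pyramidal neurons 1 to 5, against at most 9.16 in OCM-treated, 857 in purified and 1352 in glia-cultured GABAergic neurons. Pyramidal neuron 3 also had the highest astrocyte sum, 66841, and the highest microglial sum, 19786. The calcium genes took 0.00534% of its summed values, against 0.192% to 0.361% in the other 4 pyramidal neurons, and the differences of calcium genes in pyramidal neurons are given with and without neurons 3 and 4. The part of the glial transcripts in these results was otherwise not tested.

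Only 3 of the 47 genes had reads in at least 18 neurons, which 5.6% of all symbols did. These were Atp2b2, a plasma membrane calcium pump, found in all 21 neurons, as 1.53% of all symbols were, and Atp2a2, the SERCA pump of the endoplasmic reticulum, and Cacng2, the TARP subunit stargazin that also carries AMPA receptors to synapses, each found in 18. Their promoters are shown because they belong to the genes read most widely across the neurons, as 300 bases from 250 before to 50 after the gene start (RefSeq, GRCr8), with GGGCGG on either strand, the GC box, in capitals.
Atp2a2 promoter, chr12:39733269-39733568, strand +: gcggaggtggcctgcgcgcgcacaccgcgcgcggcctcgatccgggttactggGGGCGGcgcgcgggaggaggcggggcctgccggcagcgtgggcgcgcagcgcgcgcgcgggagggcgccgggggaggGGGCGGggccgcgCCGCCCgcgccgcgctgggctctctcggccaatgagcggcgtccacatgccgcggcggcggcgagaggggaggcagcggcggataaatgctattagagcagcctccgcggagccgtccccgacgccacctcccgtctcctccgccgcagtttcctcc
Atp2b2 promoter, chr4:148763604-148763903, strand -: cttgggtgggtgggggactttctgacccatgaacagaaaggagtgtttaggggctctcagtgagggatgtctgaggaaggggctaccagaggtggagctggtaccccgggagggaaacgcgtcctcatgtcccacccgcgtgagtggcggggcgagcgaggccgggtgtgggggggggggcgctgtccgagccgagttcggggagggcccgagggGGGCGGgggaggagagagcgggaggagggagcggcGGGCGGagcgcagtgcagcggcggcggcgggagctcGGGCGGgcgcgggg
Cacng2 promoter, chr7:111577708-111578007, strand -: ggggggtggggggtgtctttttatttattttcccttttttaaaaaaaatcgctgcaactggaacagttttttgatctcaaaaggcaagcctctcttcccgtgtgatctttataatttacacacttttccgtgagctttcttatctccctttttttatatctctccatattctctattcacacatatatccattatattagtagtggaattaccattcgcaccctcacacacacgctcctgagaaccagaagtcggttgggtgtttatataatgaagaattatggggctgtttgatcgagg

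The pump promoters held 3 GC boxes each and were 79.0% (Atp2a2) and 72.3% (Atp2b2) G or C, whereas the Cacng2 window held 0 and was 39.0% G or C. Windows follow the annotated gene start, and whether transcription begins there was not checked. The Cacng2 window ends in atggggctgtttgatcgagg, which opens with the letters of a start codon. Much of that window may therefore be transcribed sequence rather than promoter. Over the 36 calcium genes with such a window, 72.2% held GGGCGG, against 43.1% of 18999 protein-coding promoters of the same length. All 6 motifs searched, on both strands, are given here. TATAAA was in 5.56% of the calcium gene windows and 13.1% of all, CCAAT in 36.1% and 38.4%, TGACGTCA, the cAMP response element, in 0% and 2.22%, the shorter TGACG, which lies within it, in 11.1% and 24.2%, and GGAAA, the core of NFAT sites, in 18 of 36 and 61.6%. These matches describe letters only, and the windows were not related to the values by any test.

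**Figure D1:**
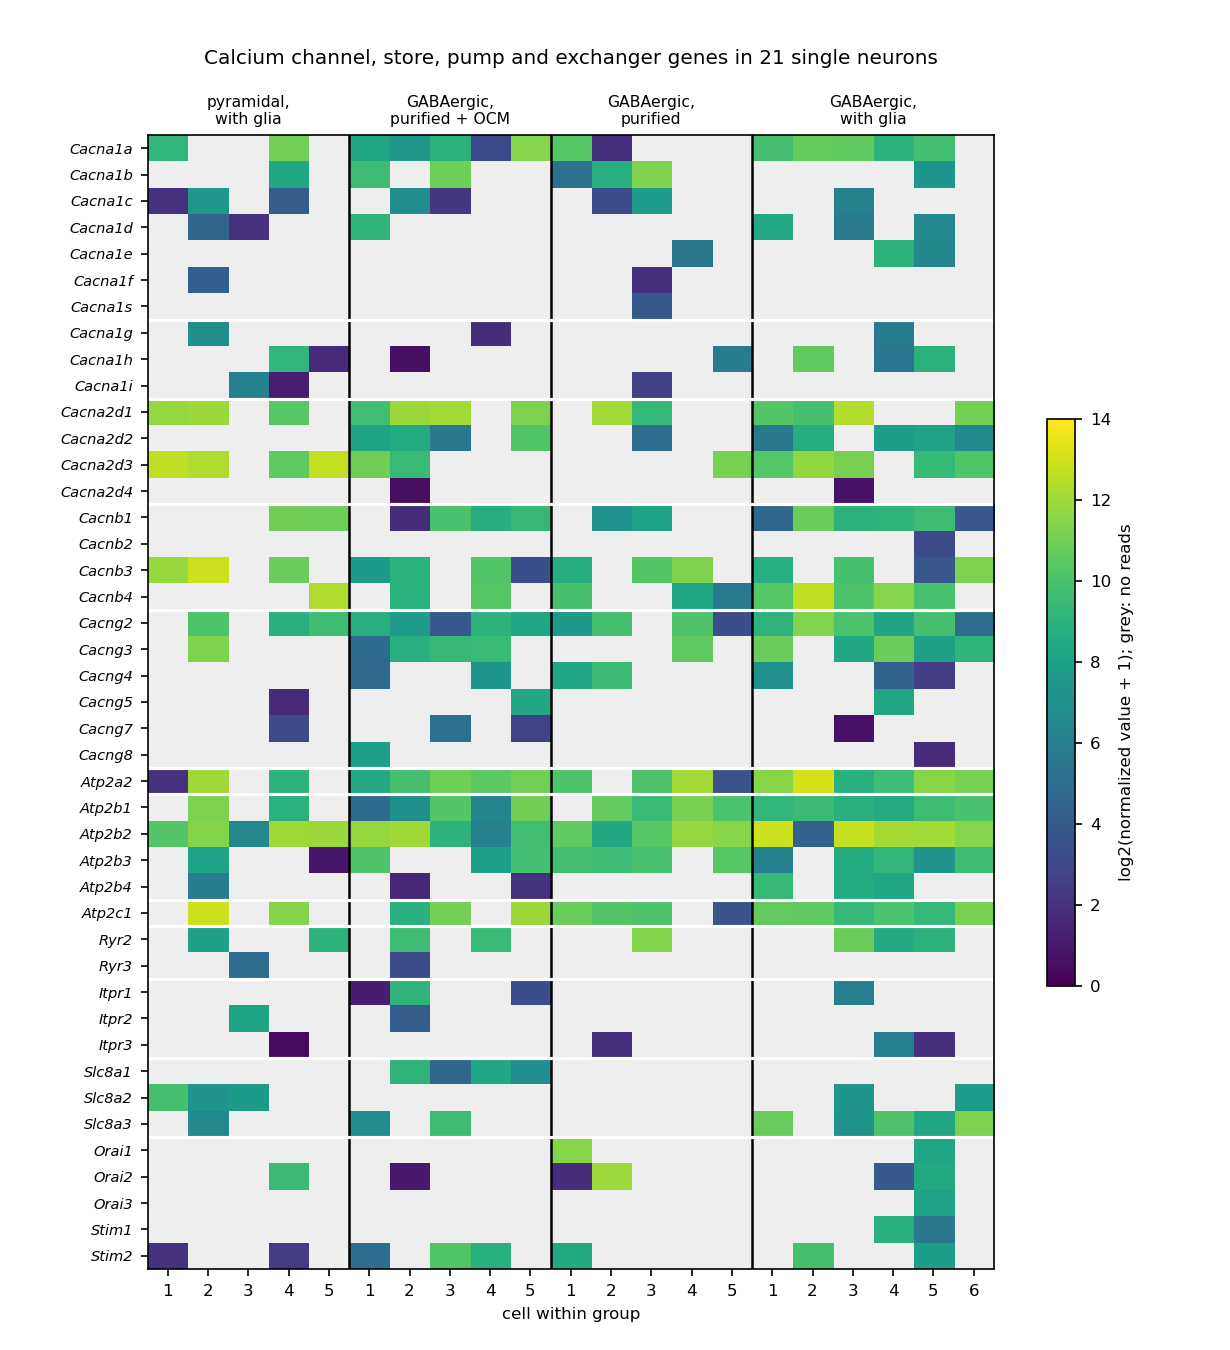
Log2 of the normalized value plus 1 for the 43 calcium genes with reads, ordered by role from channel subunits at the top to store channels at the bottom, in each neuron of the 4 groups; grey marks no reads. Most genes had reads in only part of each group, while Atp2b2 had reads in all 21 neurons.

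Pyramidal neurons 1 to 5 had reads for 9, 18, 6, 19 and 8 of the 47 genes, OCM-treated neurons for 18, 23, 16, 15 and 16, purified neurons for 13, 13, 15, 8 and 9, and the 6 glia-cultured GABAergic neurons for 13 to 28 with a median of 20. All 5 OCM-treated neurons had at least as many calcium genes as the highest purified neuron, which had 15, and the pyramidal group overlapped every other group. Over all symbols the same neurons had 2194 to 4633 (pyramidal), 3503 to 5515 (OCM-treated), 2231 to 3572 (purified) and 3321 to 7587 (glia-cultured GABAergic) genes with reads. With every neuron thinned to 1817671 reads, the calcium gene counts were 5 to 18 in pyramidal, 15 to 19 in OCM-treated, 7 to 15 in purified and 13 to 26 in glia-cultured GABAergic neurons.

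**Figure D2:**
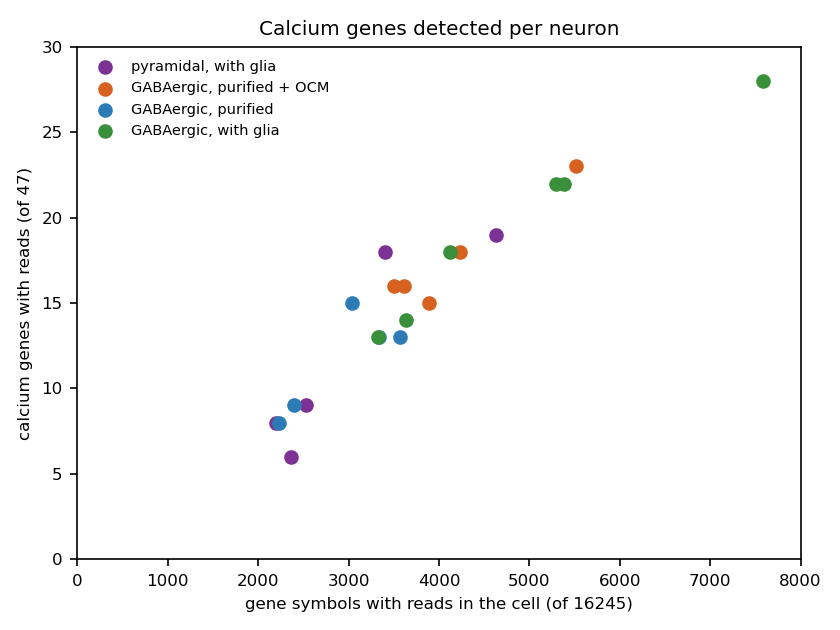
Number of the 47 calcium genes with reads (vertical axis) against the number of all gene symbols with reads (horizontal axis), 1 point per neuron, colored by group. The counts run from 6 of 47 in a pyramidal neuron with 2359 symbols to 28 of 47 in a glia-cultured GABAergic neuron with 7587, not in strict order, as the pyramidal neuron with the fewest symbols, 2194, had 8.

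The groups give 4 comparisons: pyramidal against GABAergic neurons grown with glia, purified against glia-cultured, OCM-treated against purified, and OCM-treated against glia-cultured GABAergic neurons. They share groups, so they are not independent of each other. Each gene's difference is that of the 2 group means of log2(normalized value + 1), tabulated for genes above 0 in at least 3 of the neurons compared, and a difference of 2 or more on that scale is counted. Levels are compared between groups for 1 gene at a time and never between genes, since transcript lengths were not used.

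With all neurons included, the calcium genes as a set had shares and medians near those of all genes in each comparison. Pyramidal neurons had 1 of 25 measured calcium genes higher by 2 or more and 15 lower than GABAergic neurons grown with glia (4% and 60.0%), where 7.47% and 50.6% of all measured symbols were. The median difference was -2.33 over the calcium genes and -2.05 over all 6571 symbols. Without pyramidal neurons 3 and 4, 4 of 23 measured calcium genes were higher and 15 lower. Among all symbols the shares were then smaller, 8.51% higher and 55.9% lower. The medians were -2.43 over the calcium genes and -2.62 over all. The 4 higher genes were Cacna2d3 (3.77), Slc8a2 (3.22), Cacnb3 (2.62) and Cacna1c (2.13). Their pooled SDs between neurons were 3.70, 4.29, 5.73 and 2.96 in that order, so all but Cacna2d3 lay within the spread. Cacna1c had values of 2.96, 177 and 0 in pyramidal neurons 1, 2 and 5. The 5 lower genes picked by the naming rule then had differences of -6.30 (Atp2a2), -5.74 (Slc8a3), -6.15 (Cacna2d2), -4.98 (Cacnb4) and -4.08 (Cacng3). Purified neurons had 1 of 26 higher and 15 lower than glia-cultured GABAergic neurons (3.85% and 57.7%, against 5.73% and 51.7% of all), with medians of -2.86 over the calcium genes and -2.13 over all. OCM-treated neurons had 9 of 22 higher and 2 lower than purified neurons (40.9% and 9.09%, against 39.3% and 10.1% of all), with medians of 1.44 and 1.40. They had 2 of 27 higher and 6 lower than glia-cultured GABAergic neurons (7.41% and 22.2%, against 11% and 30.4% of all), with medians of -1.23 and -0.72. In none of the 4 comparisons did any calcium gene separate the groups without overlap. Among all symbols the shares that did so, higher and lower, were 0.243% and 1.84% (pyramidal against GABAergic), 0.159% and 1.51% (purified against glia-cultured), 0.817% and 0.233% (OCM-treated against purified) and 0.177% and 0.517% (OCM-treated against glia-cultured).

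**Figure D3:**
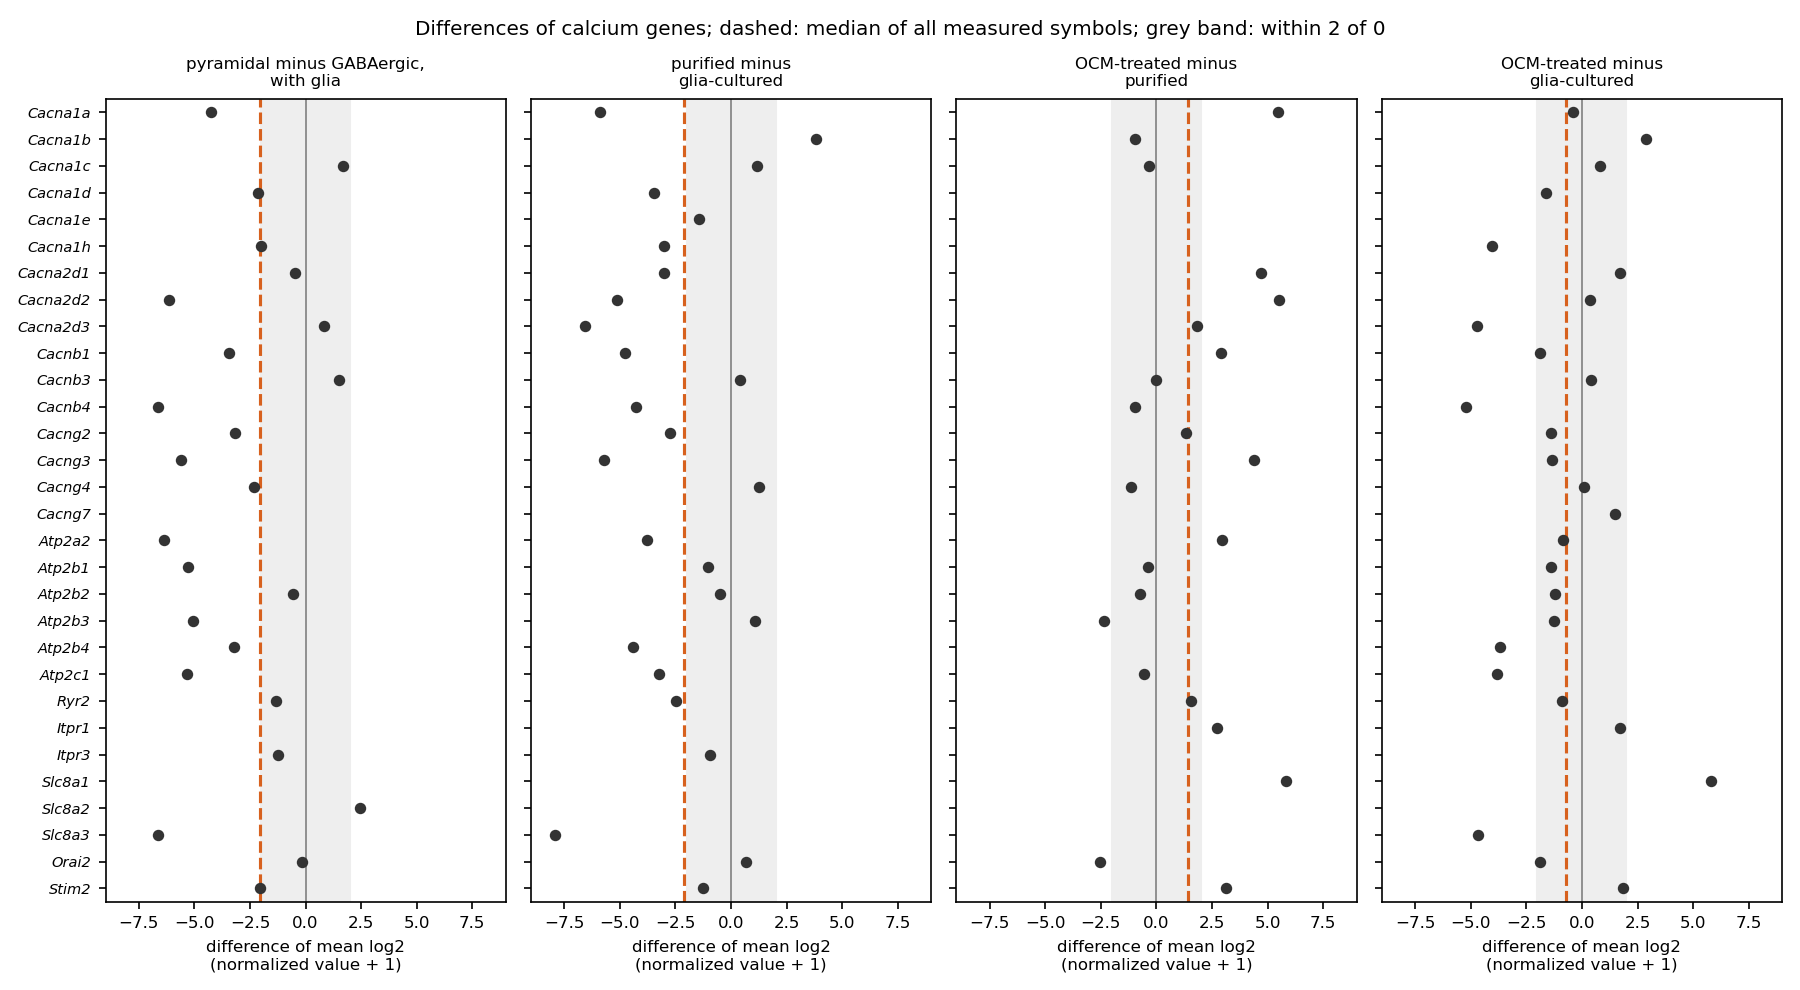
Difference of mean log2(normalized value + 1), horizontal axis, for each measured calcium gene in the 4 comparisons, first-named group minus second; the dashed line is the median of all measured symbols and the grey band lies within 2 of 0. The points scatter around the dashed line in each panel, from Slc8a3 at -7.94 in purified against glia-cultured neurons to Slc8a1 at 5.82 in OCM-treated against purified neurons.

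Among the pore-forming subunits, Cacna1a, the alpha1 of P/Q-type channels that trigger transmitter release (chromosome 19, 25526751 to 25749550 in rn6), was the only one that the naming rule picked. Its normalized values were 334, 187, 511, 7.88 and 2776 in OCM-treated neurons and 1247, 2.71, 0, 0 and 0 in purified neurons. Pyramidal neurons had 600, 0, 0, 2045 and 0, and glia-cultured GABAergic neurons 0, 892 and 1653 as lowest, median and highest. Every OCM-treated neuron thus had reads and 3 of 5 purified neurons had none, but purified neuron 1 lay above 4 of the 5 OCM-treated neurons. The difference was 5.47 for OCM-treated minus purified and -5.89 for purified minus glia-cultured, where the pooled SD between neurons was 3.81 and 4.28 on the same scale. Pyramidal neurons were lower than GABAergic neurons grown with glia by a difference of -4.27 with a pooled SD of 4.82, and by -5.24 with a pooled SD of 4.50 without pyramidal neurons 3 and 4.

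The other high-voltage-activated subunits were scattered. Cacna1b, the N-type alpha1 of presynaptic terminals, had reads in 1 of 5 pyramidal, 2 of 5 OCM-treated, 3 of 5 purified and 1 of 6 glia-cultured GABAergic neurons. It was the only calcium gene higher by 2 or more in purified than in glia-cultured neurons, with 37.1, 441, 2517, 0 and 0 in purified neurons and 161 in the single glia-cultured GABAergic neuron that had it. Cacna1c and Cacna1d, the L-type alpha1 subunits of cell bodies and dendrites, had reads in 8 and 6 of 21 neurons, and Cacna1e, the R-type alpha1, in 3. Cacna1f, known from retina, was in 2 neurons at 2.74 and 17.7, and Cacna1s, the skeletal muscle subunit, in 1 at 13.7. Of the low-voltage-activated T-type subunits that support burst firing, Cacna1g and Cacna1i had reads in 3 neurons each and Cacna1h in 7.

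The alpha2delta subunits, extracellular proteins that bring channels to the membrane and, for Cacna2d1 and Cacna2d2, bind gabapentin, were read in different sets of neurons. Cacna2d2 (chromosome 8, 116154736 to 116283746) had values of 288, 387, 47.1, 0 and 1182 in OCM-treated neurons and 0, 0, 32.9, 0 and 0 in purified neurons. It was at 0 in all 5 pyramidal neurons, while glia-cultured GABAergic neurons had 0, 166 and 424 as lowest, median and highest. Reads were thus found in 4 of 5 OCM-treated, 1 of 5 purified, 0 of 5 pyramidal and 5 of 6 glia-cultured GABAergic neurons. Against a floor of 3 reads over the pyramidal group, its mean was at least 50.3-fold lower in pyramidal than in GABAergic neurons grown with glia. Taken as independent draws, which the labels do not show them to be, 0 of 5 pyramidal neurons allows a share of up to 52.2% (exact binomial, 95%). Reads in at least 5 of 6 glia-cultured GABAergic neurons and in no pyramidal neuron were found for 178 of 7015 symbols above 0 in at least 4 neurons, or 2.54%. The differences of Cacna2d2 were -6.15 for pyramidal minus GABAergic, 5.50 for OCM-treated minus purified, -5.14 for purified minus glia-cultured and 0.36 for OCM-treated minus glia-cultured. The pooled SDs were 2.39, 3.25, 2.83 and 3.58 in that order, so the first 3 differences were larger than the spread between neurons.

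Cacna2d3 (chromosome 16, 4871650 to 5795825) was found in 4 of 5 pyramidal neurons, at 6436, 5107, 0, 1452 and 6626, and glia-cultured GABAergic neurons had 0, 1236 and 3236. The pyramidal neuron at 0 is neuron 3, the one with the highest glial sums. Neuron 4, at 1452, lay within the range of GABAergic neurons grown with glia. Without pyramidal neurons 3 and 4, the 3 others all lay above every GABAergic neuron grown with glia, and the difference was 3.77, against 0.85 with all 5. In that reduced comparison Cacna2d3 was the only calcium gene of 23 without overlap, and 1.63% of all symbols were higher and 4.39% lower without overlap. OCM-treated neurons had 1985, 685, 0, 0 and 0 and purified neurons 0, 0, 0, 0 and 2331, so these groups overlapped. The difference was -6.55 for purified minus glia-cultured and -4.71 for OCM-treated minus glia-cultured, with pooled SDs of 4.67 and 4.96.

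Cacna2d1 (chromosome 4, 15710417 to 16130849) had values of 834, 3773, 4344, 0 and 2393 in OCM-treated neurons and 0, 4204, 642, 0 and 0 in purified neurons. Pyramidal neurons had 3569, 3875, 0, 1295 and 0, and glia-cultured GABAergic neurons 0, 1079 and 5380. All 4 groups held neurons at 0, with highest values of 4344 (OCM-treated), 4204 (purified), 3875 (pyramidal) and 5380 (glia-cultured GABAergic), and the largest difference, 4.71 for OCM-treated minus purified, was within the pooled SD of 5.53. The pyramidal minus GABAergic difference was 0.64 without pyramidal neurons 3 and 4, with a pooled SD of 6.05. Some neurons at 0 had reads in a second table entry of Cacna2d1, left out for its lower mean. These were glia-cultured GABAergic neuron 4 (1301), pyramidal neuron 5 (42.6) and purified neuron 5 (22.4). The remaining subunit, Cacna2d4, had reads in 2 neurons at values of 0.509 and 0.622.

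Of the beta subunits, cytoplasmic proteins that bind the alpha1 pore and help it reach the membrane, Cacnb4 (chromosome 3, 37955069 to 38211354) had 0, 0, 0, 0 and 5101 in pyramidal neurons and 0, 1203 and 6355 in glia-cultured GABAergic neurons. OCM-treated neurons had 0, 485, 0, 1301 and 0, and purified neurons 977, 0, 0, 341 and 56.0. Reads were thus present in 5 of 6 glia-cultured GABAergic neurons and in 1 to 3 neurons of every other group, with overlap throughout. Its difference was -6.63 for pyramidal minus GABAergic, but -1.04 as a log2 ratio of group means; the 1 pyramidal neuron with reads lay below only 1 glia-cultured GABAergic neuron.

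Cacnb1 (chromosome 10, 85954138 to 85974644) had 0, 0, 0, 2019 and 1896 in pyramidal neurons and 12.7, 531 and 1844 in glia-cultured GABAergic neurons. OCM-treated neurons had 0, 2.54, 1017, 421 and 631, and purified neurons 0, 146, 280, 0 and 0. The 2 pyramidal neurons with reads were above every GABAergic neuron, while the other 3 were below every glia-cultured one. Its direction in that comparison therefore turned with the measure: -3.47 as a difference of mean log2 values and 0.33 as a log2 ratio of means. The difference of mean log2 values was -4.21 without pyramidal neurons 3 and 4. Cacnb3 (chromosome 7, 140315364 to 140324902) had 3646, 7838, 0, 1802 and 0 in pyramidal neurons and 0, 234 and 2431 in glia-cultured GABAergic neurons. Its differences were 1.48 for pyramidal minus GABAergic and 0.41 for OCM-treated minus glia-cultured, where the pooled SDs were 5.76 and 4.71. Without pyramidal neurons 3 and 4 the first was 2.62, past the threshold of 2 but within its pooled SD of 5.73. OCM-treated neurons had 199, 524, 0, 1163 and 9.31 and purified neurons 418, 0, 1239, 2515 and 0, again overlapping. Cacnb2 had reads in 1 neuron, at 8.53.

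The gamma subunits are mostly known as TARPs, partners of AMPA receptors. Cacng2 (chromosome 7, 119229301 to 119352036) had values of 450, 210, 14.1, 521 and 296 in OCM-treated neurons and 185, 933, 0, 1149 and 9.33 in purified neurons. Pyramidal neurons had 0, 1138, 0, 479 and 802, and glia-cultured GABAergic neurons 31.2, 737 and 2594. All OCM-treated and all glia-cultured GABAergic neurons had reads, and the groups overlapped in every comparison. The pyramidal minus GABAergic difference was -2.32 without pyramidal neurons 3 and 4, within the pooled SD of 3.57. Cacng3 (chromosome 1, 192613766 to 192708371) had 30.2, 435, 650, 728 and 0 in OCM-treated neurons and 0, 0, 0, 1558 and 0 in purified neurons. Pyramidal neurons had 0, 2477, 0, 0 and 0, and glia-cultured GABAergic neurons 0, 441 and 1841. It was therefore found in 1 of 5 neurons of the pyramidal and of the purified group, where the single values were 2477 and 1558. The difference was -5.59 for pyramidal minus GABAergic, -5.72 for purified minus glia-cultured and 4.40 for OCM-treated minus purified, with pooled SDs of 4.51, 4.36 and 4.43. Cacng4 had reads in 7 neurons and in no pyramidal one, and Cacng5, Cacng7 and Cacng8 in 3, 4 and 2.

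**Figure D4:**
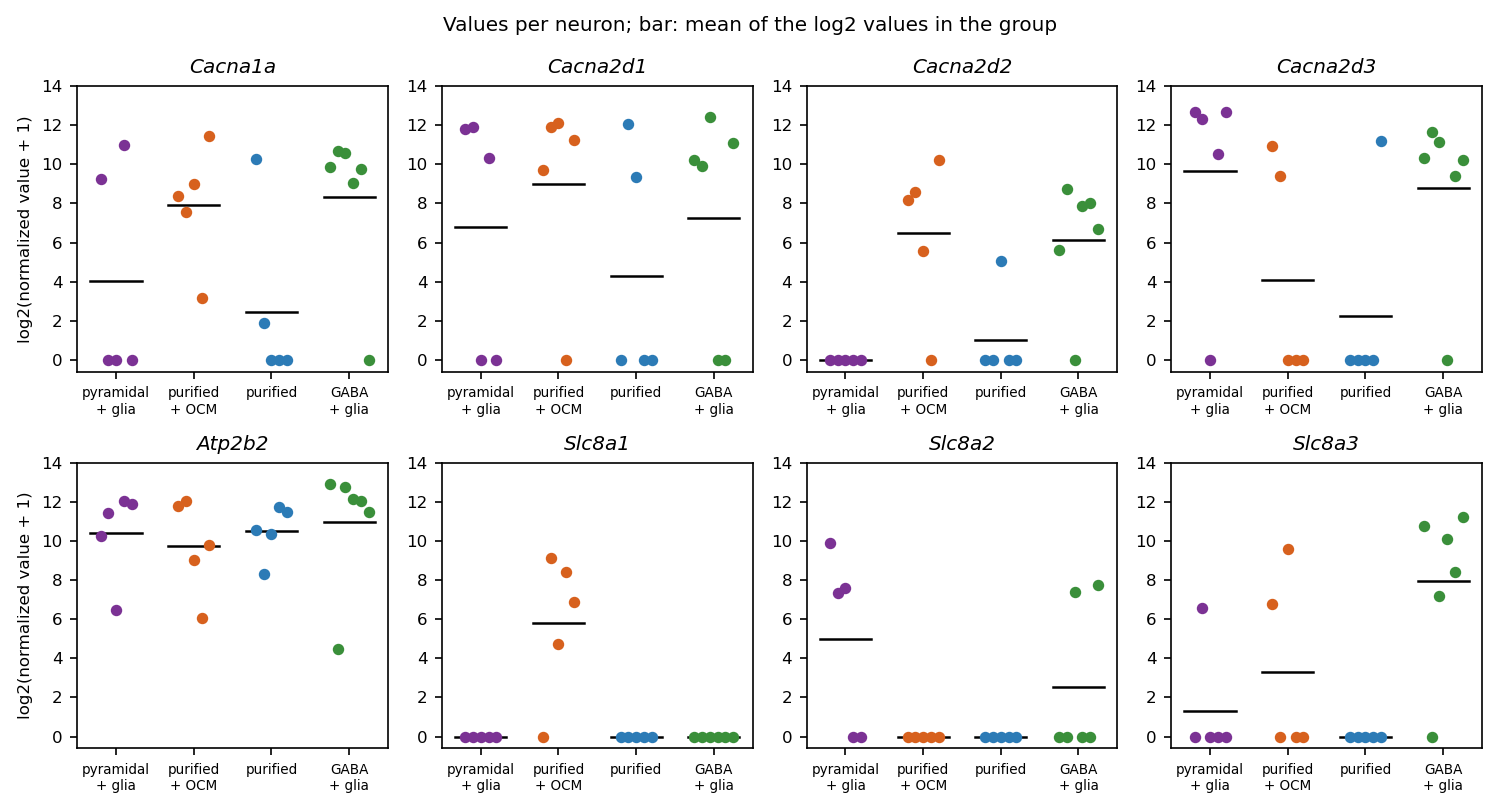
Log2(normalized value + 1) in each neuron for 8 calcium genes, by group; bars are group means of the log2 values and points at 0 are neurons without reads. Slc8a1 has reads in OCM-treated neurons only and Slc8a3 in no purified neuron, while Atp2b2 has reads in all 21.

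The sodium-calcium exchangers, which extrude calcium after activity, were read in different groups by isoform. Slc8a1, or NCX1 (chromosome 6, 4255699 to 4520638), had values of 0, 549, 25.7, 339 and 115 in OCM-treated neurons and 0 in each of the 5 purified, 5 pyramidal and 6 glia-cultured GABAergic neurons. The OCM-treated reads numbered 1712 (95% exact Poisson interval 1632 to 1795, counting error only), against 0 reads in the other 16 neurons. The share of all symbols with reads in OCM-treated neurons only was not counted, so how unusual this pattern is cannot be told. By a different measure, 39.3% of all measured symbols were higher by 2 or more in OCM-treated than in purified neurons, and 11% than in glia-cultured ones. With a floor of 3 reads over each group, the OCM-treated mean of 206 ± 234 (SD, n = 5) was at least 125-fold above the purified mean and at least 290.5-fold above the glia-cultured mean. The difference of 5.82 exceeded the pooled SD in both comparisons, 2.59 with purified and 2.44 with glia-cultured neurons. One OCM-treated neuron had no reads, so the groups still overlapped at 0. A second table entry of the same symbol, which overlaps the first by position, was also above 0 in 3 OCM-treated neurons and in no other. The 0 of 5 in purified neurons allows a share of up to 52.2% and the 0 of 6 in glia-cultured neurons up to 45.9% (exact binomial, 95%). Both limits take neurons as independent draws, which the labels do not show them to be.

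Slc8a3, or NCX3 (chromosome 6, 104891025 to 105097054), was at 0 in all 5 purified neurons and at 0, 709 and 2387 in glia-cultured GABAergic neurons, with reads in 5 of 6. Its mean was at least 573-fold lower in purified than in glia-cultured neurons, with a difference of -7.94 against a pooled SD of 3.11. Reads in at least 5 of 6 glia-cultured GABAergic neurons and in no purified neuron were found for 146 of 7015 symbols, or 2.08%. OCM-treated neurons had 109, 0, 767, 0 and 0 and pyramidal neurons 0, 94.4, 0, 0 and 0. Both of these groups thus had mostly neurons at 0, with differences from glia-cultured GABAergic neurons of -4.66 (OCM-treated, pooled SD 4.36) and -6.62 (pyramidal, pooled SD 3.68).

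Slc8a2, or NCX2 (chromosome 1, 78029555 to 78054044), is a largely neuronal exchanger. It was named after its values were seen, to complete the family. Pyramidal neurons had 949, 159, 194, 0 and 0, and glia-cultured GABAergic neurons had 0, 0 and 210 as lowest, median and highest, with reads in 2 of 6. It was at 0 in all OCM-treated and all purified neurons. The difference of 2.45 for pyramidal minus GABAergic was within the pooled SD of 4.25, although it was the only calcium gene higher by 2 or more in pyramidal neurons. It was 3.22 without pyramidal neurons 3 and 4, again within the pooled SD of 4.29. Purified neurons had no reads of any exchanger, whereas each OCM-treated neuron had at least 1 of the 3. How often other sets of 3 genes split this way was not counted. Over all symbols, genes with reads numbered 2231 to 3572 in purified and 3503 to 5515 in OCM-treated neurons.

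The plasma membrane pumps, which hold resting calcium low, include the 1 calcium gene read in every neuron. Atp2b2 (chromosome 4, 145704779 to 145890443) had 1198, 2748, 88.0, 4157 and 3789 in pyramidal neurons, and 21, 4346 and 7773 in glia-cultured GABAergic neurons. OCM-treated neurons had 3533, 4180, 522, 65.0 and 870, and purified neurons 1512, 319, 1316, 3340 and 2864. All groups overlapped widely, and its 4 differences, -0.56 (pyramidal minus GABAergic), -0.48 (purified minus glia-cultured), -0.76 (OCM-treated minus purified) and -1.23 (OCM-treated minus glia-cultured), were each smaller than the pooled SD. The lowest pyramidal value again belonged to neuron 3, and without pyramidal neurons 3 and 4 the first difference was 0.22.

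Atp2b1 (chromosome 7, 41114697 to 41220579) had 29.1, 126, 1209, 79.4 and 2018 in OCM-treated neurons and 0, 1569, 724, 2320 and 1040 in purified neurons. Pyramidal neurons had 0, 2377, 0, 483 and 0, and glia-cultured GABAergic neurons 384, 676 and 996. It was thus read in every OCM-treated and every glia-cultured GABAergic neuron and in 2 of 5 pyramidal neurons, whose difference of -5.27 exceeded the pooled SD of 3.73 but was -0.21 as a log2 ratio of means. The difference was -5.56 without pyramidal neurons 3 and 4. A second table entry of Atp2b1, left out for its lower mean, averaged 514 in pyramidal and 27.2 in glia-cultured GABAergic neurons. That entry had reads in 2 of 5 pyramidal and 5 of 6 glia-cultured GABAergic neurons. Atp2b3 (chromosome X, 157239371 to 157312028) had 1123, 0, 0, 241 and 917 in OCM-treated neurons and 853, 769, 1012, 0 and 1297 in purified neurons. Pyramidal neurons had 0, 277, 0, 0 and 0.775, and glia-cultured GABAergic neurons 0, 283 and 793. Purified neurons held the highest Atp2b3 value and 3 of the 5 highest, and the OCM-treated minus purified difference of -2.35 was within the pooled SD of 4.82. It was -0.96 without OCM-treated neuron 2 or 3 and -4.33 without purified neuron 4, each of which had none. The difference for pyramidal minus GABAergic was -5.05 with a pooled SD of 3.58, and -3.86 without pyramidal neurons 3 and 4, where the pooled SD was also 3.86. Atp2b4 had reads in 3 of 6 glia-cultured GABAergic neurons and in no purified neuron, and stood at 59.0 in 1 pyramidal neuron and at 2.03 and 3.10 in 2 OCM-treated ones.

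The SERCA pump gene Atp2a2 (chromosome 12, 39553903 to 39603326) had 343, 922, 1928, 1413 and 2050 in OCM-treated neurons and 1143, 0, 1069, 4229 and 11.2 in purified neurons. Pyramidal neurons had 2.96, 4152, 0, 534 and 0, and glia-cultured GABAergic neurons 479, 2568 and 8870. All GABAergic neurons with OCM or glia had at least 343, whereas pyramidal neurons ran from 0 to 4152 and purified neurons from 0 to 4229. The difference was -6.36 for pyramidal minus GABAergic (pooled SD 3.88), -3.79 for purified minus glia-cultured (pooled SD 3.60) and 2.96 for OCM-treated minus purified (pooled SD 3.70). Without purified neuron 2, the one at 0, the differences of Atp2a2 that involve purified neurons were -2.0 (against glia-cultured) and 1.16 (OCM-treated against purified).

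Atp2c1, which pumps calcium and manganese into the Golgi (chromosome 8, 113945057 to 114039965), had 0, 479, 2160, 0 and 3744 in OCM-treated neurons and 1834, 1203, 1088, 0 and 11.2 in purified neurons. Pyramidal neurons had 0, 7850, 0, 2671 and 0, and glia-cultured GABAergic neurons 642, 1262 and 2357. Every glia-cultured GABAergic neuron had reads, while the 2 pyramidal neurons with reads were above all of them. The pyramidal minus GABAergic difference was -5.32, or -5.87 without pyramidal neurons 3 and 4, yet the log2 ratio of means was 0.70, with means of 2104 ± 3414 (SD, n = 5) in pyramidal and 1293 ± 653 (SD, n = 6) in GABAergic neurons grown with glia. The difference was -3.81 for OCM-treated minus glia-cultured and -0.58 for OCM-treated minus purified, both within the pooled SDs of 3.98 and 5.42. The first was -2.22 without OCM-treated neuron 1 or 4, which had no reads.

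Genes of calcium release and store refilling were read in few neurons. Ryr2, the ryanodine receptor also found in heart, had reads in 8 neurons spread over all groups, and Ryr3 in 2. Itpr1, the main neuronal IP3 receptor, had reads in 3 of 5 OCM-treated and 1 of 6 glia-cultured GABAergic neurons, at 1.16, 555, 9.31 and 62.2, and in no pyramidal or purified neuron. Itpr2 was in 2 neurons, 1 of them pyramidal neuron 3 at 290.4, and Itpr3 in 4. The store sensors Stim1 and Stim2 had reads in 2 and 8 neurons, and the channels Orai1, Orai2 and Orai3 in 2, 6 and 1. A single glia-cultured GABAergic neuron, neuron 5, had reads for all 5 of these Stim and Orai genes. It was also the neuron with the most gene symbols, 7587.

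The deposited sample titles open with letters of unstated meaning, which overlap with group: pyramidal neurons were 3 P and 2 S, OCM-treated neurons 5 S, purified neurons 1 P and 4 S, and glia-cultured GABAergic neurons 3 P, 1 S and 2 ech. Among neurons titled P, 3 pyramidal against 3 GABAergic grown with glia, 4 calcium genes of 18 were lower without overlap (Atp2b2, Atp2b3, Cacng3 and Slc8a3), as were 21.4% of all symbols, while 2.49% were higher. Among neurons titled S, the 5 OCM-treated and 4 purified neurons had a difference of 4.86 for Cacna1a, 5.24 for Cacna2d2 and 5.82 for Slc8a1, close to the values over all neurons. With purified or OCM-treated neurons set against the 1 glia-cultured GABAergic neuron titled S, the differences of Cacna1a were 3.04 and 7.91, of Cacnb4 4.59 and 3.85 and of Cacng2 1.89 and 2.53, all positive where the values over all neurons were negative. Against that single neuron, 0 of 10 measured calcium genes were higher and 1 lower without overlap in purified neurons, where 10% and 20.7% of all symbols were. In OCM-treated neurons 1 of 17 was higher and 3 lower, where 9.37% and 24.7% of all symbols were. Slc8a3 was lower in both, by differences of -11.22 (purified) and -7.95 (OCM-treated). The part of the letter in these results was not tested.

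Other genes of calcium handling, in 6 lists chosen with earlier results of these data known, were counted in the same way. The shares of all symbols higher and lower, against which these counts are read, were 7.47% and 50.6% (pyramidal against GABAergic), 5.73% and 51.7% (purified against glia-cultured), 39.3% and 10.1% (OCM-treated against purified) and 11% and 30.4% (OCM-treated against glia-cultured). Of 17 measured calcium buffers and sensors, 3 were higher and 5 lower by 2 or more in pyramidal than in GABAergic neurons grown with glia, with a median of -0.12 beside -2.05 over all symbols. Hpca, the neuronal calcium sensor hippocalcin, was highest in that list at 7.89, and Kcnip1, a potassium channel partner with calcium-binding domains, lowest at -8.56. In purified against glia-cultured neurons 1 of 16 was higher and 10 lower, with a median of -2.99. In OCM-treated against purified neurons 7 of 14 were higher and 1 lower, led by Kcnip1 at 9.67, which had reads in all 5 OCM-treated neurons and no purified one. Calb1, the buffer calbindin, was the highest in OCM-treated against glia-cultured neurons at 6.88, with reads in 4 of 5 OCM-treated and 2 of 6 glia-cultured neurons; 1 of 16 genes of the list was higher and 4 lower there.

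Among calcium-dependent kinases and phosphatases, 15 of 19 measured genes were lower by 2 or more in purified than in glia-cultured neurons and 1 was higher, with a median of -4.05 beside -2.13 over all symbols. The counts higher and lower were 3 and 10 of 19 in pyramidal against GABAergic neurons, 8 and 2 of 13 in OCM-treated against purified and 0 and 9 of 19 in OCM-treated against glia-cultured neurons. The medians were -2.13, 3.62 and -1.81, beside -2.05, 1.40 and -0.72 over all symbols. For endoplasmic reticulum calcium handling the counts were 0 and 9 of 18 (pyramidal), 0 and 10 of 18 (purified), 6 and 0 of 18 (OCM-treated against purified) and 2 and 5 of 19 (OCM-treated against glia-cultured), with medians of -1.98, -2.15, 0.26 and -0.26. Mitochondrial calcium genes gave 0 and 4 of 7, 0 and 4 of 7, 2 and 0 of 7 and 1 and 2 of 7 in the same order, with medians of -3.75, -3.86, 1.65 and -0.27. Partners of voltage-gated channels gave 1 and 8 of 14, 0 and 8 of 13, 4 and 0 of 12 and 1 and 5 of 16, with medians of -2.51, -2.33, 1.34 and -1.26. Other routes of calcium, such as Trp channels, gave 1 and 4 of 6, 2 and 2 of 7, 3 and 1 of 6 and 1 and 2 of 8, with medians of -4.36, -0.83, 0.92 and -0.30. Without pyramidal neurons 3 and 4, the counts higher and lower in pyramidal neurons were 4 and 4 of 16 (buffers and sensors), 3 and 8 of 18 (kinases and phosphatases), 1 and 11 of 18 (endoplasmic reticulum), 0 and 5 of 7 (mitochondrial), 4 and 6 of 14 (channel partners) and 1 and 4 of 6 (other routes), beside 8.51% and 55.9% of all symbols.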

How the data were processed

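Neurons were lysed into SMART-Seq v4 reactions, made into Nextera XT libraries and sequenced from both ends on a NextSeq500 instrument, per the labels' protocols. The labels also name a HiSeq platform, and which instrument was used could not be settled. The submitters' processing notes list STAR 2.4.0, FastQC, Picard, SAMtools, DESeq2 and rn6. The read counter, annotation and strand setting were not given in the sources used here, so reads of overlapping or antisense genes cannot be told apart. The deposited values are a signal per gene, described by the authors as DESeq2-normalized. They were whole multiples of 1 step per neuron in 100% of cases (within 0.05 of a whole number), which gave back reads and depth. A count test on those reads was not run, since it would take cells for replicates. Of 34976 table entries 18376 have no symbol, and 0 value columns lacked a sample. Of several entries per symbol the one with the highest mean was kept (355 left out, 4 of them calcium genes).

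The difference of group means of log2(value + 1) was taken for symbols above 0 in at least 3 neurons of the 2 groups; 2 or more counted as past the threshold. Since a gene missing from a neuron is at 0 on that scale, the difference largely follows how many neurons had reads. Pooled SDs are of log2 values between neurons. Floors are 3 reads over a group, taken in its neuron with the largest value per read. Intervals are 95%. Poisson intervals and floors cover counting error only, as no molecular identifiers are mentioned. Binomial intervals take neurons as independent draws and do not cover spread between animals or cultures. Values were computed in Python 3.11.15 with pandas 2.3.3, numpy 2.4.6 and scipy 1.17.1, and plots in matplotlib 3.10.9. The difference measure was checked on simulated reads of highly read genes with known changes. The simulation had no spread between neurons beyond counting error, so it does not cover genes read in only part of a group.

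Values per neuron are given for genes above 0 in at least 18 neurons, genes without overlap, and, per comparison and direction, up to 5 with the largest difference among those with a mean of at least 50 and reads in at least 4 neurons of the higher group. Values of Slc8a2, Cacna1b, Cacna1c and some genes read in few neurons are given outside that rule. The genes, lists and alternatives were chosen with earlier results of these data known. Detection patterns, the stress on the exchangers and alpha2delta subunits, and the 3 promoters printed were settled after values had been seen. Windows of the exchanger genes were looked at first and are not printed, as those of Slc8a1 and Slc8a2 appeared to begin at coding exons. The promoter background was narrowed to protein-coding genes at that step.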

Additional observations from a re-analysis of the deposited data

Results flagged for a closer look

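Over the 16 genes named by rule, the number of calcium genes read and their share of the summed values, 67 groups of 5 or 6 neurons could be checked for a neuron far from the others (Dixon's criterion at 95%), and 15 groups held one; chance gives about 1 in 20. In all 15 the distant neuron was the highest. With most of a group at or near 0, a single neuron with reads meets the criterion by itself.

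Pyramidal neuron 2 stood apart for Atp2a2 (4152), Atp2b1 (2377), Atp2b3 (277), Cacng3 (2477) and Slc8a3 (94.4). It had the fewest reads of all neurons, 1817671, and 18 calcium genes. Pyramidal neuron 5 stood apart for Cacnb4 (5101). Purified neuron 1 stood apart for Cacna1a (1247), neuron 2 for Cacna2d1 (4204), neuron 3 for Cacna2d2 (32.9), neuron 4 for Atp2a2 (4229) and Cacng3 (1558), and neuron 5 for Cacna2d3 (2331). OCM-treated neuron 3 stood apart for Slc8a3 (767) and neuron 5 for Cacna1a (2776), and glia-cultured GABAergic neuron 2 for Atp2a2 (8870).

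Table entries left out because another entry of the symbol had a higher mean also held reads. Over 21 neurons their means were 184 for Atp2b1, 489.9 for Cacna2d1 and 2.30 for Slc8a1.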

How the results depend on the processing

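Of 16 summaries (the median difference and the counts of genes higher, lower or without overlap in 4 comparisons), 278 recomputed values stayed within the spread or within 1.5 times and 74 moved; for single genes 1307 stayed, 28 moved and 7 turned sign. No paired analysis was possible because the labels tie no neurons across groups. The medians -2.33 (pyramidal minus GABAergic), -2.86 (purified minus glia-cultured), 1.44 (OCM-treated minus purified) and -1.23 (OCM-treated minus glia-cultured) moved as follows. In the first it was -3.93 with a pseudocount of 0.1, -4.66 over genes above 0 in at least 6 neurons and -4.61 in neurons titled P. In the second it was -1.91 with a pseudocount of 10, -1.29 as a log2 ratio of means, -1.73 with the median over neurons and -0.97 with no filter. In the third it was 0.12 as a ratio of means, 0 with the median over neurons and 0 with no filter, and in the fourth -0.26 as a ratio of means. Leaving out each neuron gave -3.75 to -2.31, -3.21 to -1.93, 0.64 to 1.83 and -1.27 to -0.60; the extremes came without pyramidal neuron 4 (-3.75), OCM-treated neuron 2 (0.68) or purified neuron 5 (0.64), and OCM-treated neuron 1 (-0.60) or glia-cultured GABAergic neuron 1 (-0.74) or 4 (-0.75). Genes higher in pyramidal neurons, 1, were 0 with a pseudocount of 10, upper-quartile scaling, the 6-neuron filter or neurons titled P, 2 with a pseudocount of 0.1 or the ratio of means, 3 with the median, 4 without pyramidal neurons 3 and 4, and 0 to 3 leaving out each neuron (3 without pyramidal neuron 3 or 5 or glia-cultured GABAergic neuron 3, 2 without glia-cultured neuron 6, 0 without pyramidal neuron 1 or 2 or glia-cultured neuron 2, 4 or 5); genes lower, 15, were 8 by the ratio of means. In purified against glia-cultured neurons the 1 higher gene was 3 by the ratio of means, 2 by the median, 0 with the 6-neuron filter and 1 to 3 leaving out each neuron (3 without purified neuron 4, 2 without purified neuron 3 or 5 or glia-cultured neuron 1), and the 15 lower were 9 by the ratio of means and 6 in neurons titled S. In OCM-treated against purified neurons the 9 higher were 5 by the ratio of means and 4 with the 6-neuron filter, and the 2 lower were 0 with a pseudocount of 10, 1 with the 6-neuron filter or thinning and 1 to 5 leaving out each neuron (4 without OCM-treated neuron 4, 5 without purified neuron 4, 1 without OCM-treated neuron 2 or purified neuron 1 or 2). In OCM-treated against glia-cultured neurons the 2 higher were 6 with a pseudocount of 0.1 or in neurons titled S, 4 by the ratio of means, 0 with the 6-neuron filter and 2 to 4 leaving out each neuron (4 without OCM-treated neuron 4 or glia-cultured neuron 2 or 3), and the 6 lower were 10 with a pseudocount of 0.1 and 6 to 11 leaving out each neuron (11 without glia-cultured GABAergic neuron 2 or 6). Genes without overlap, 0 in each comparison, were 1 without pyramidal neurons 3 and 4, 4 in neurons titled P, 1 and 4 in neurons titled S (purified and OCM-treated against glia-cultured; 10% and 9.37% of all symbols were then higher and 20.7% and 24.7% lower), and 0 to 1 leaving out each neuron in each comparison (1 without glia-cultured neuron 2 or 3 in the first, glia-cultured neuron 2, 3 or 6 in the second, OCM-treated neuron 1 or 4 or purified neuron 1 in the third, and OCM-treated neuron 1 in the fourth). By the ratio of means Atp2c1 (0.70) and Cacnb1 (0.33) turned sign in pyramidal against GABAergic neurons. In neurons titled S the sign of differences of 2 or more turned for Cacna1a (3.04), Cacnb1 (0.053), Cacnb4 (4.59) and Cacng2 (1.89) in purified, and for Cacnb4 (3.85) in OCM-treated, against glia-cultured neurons, where a single glia-cultured neuron remains. Causes were not tested. With 5 or 6 neurons a group, a gene read in part of them moves by several log2 units with 1 neuron, and a gene at 0 was not detected in the reads of that neuron; limits on detection were not compared.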
